A study of Mus musculus with 14 samples.

Results

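The genes described here are regulators known to mark or maintain undifferentiated spermatogonia: Zbtb16, Id4, Pou5f1, Neurog3, Sox3, Foxo1, Sall4, Lin28a, Utf1 and Taf4b. Members were every non-control probe of the array whose gene name equals that of 1 of these genes, with Lin28 read as Lin28a. Of the 10 genes, 9 had such a probe, which gave 13 probes of 41174 on the array. Zbtb16, which encodes the zinc finger factor PLZF, had no probe under its own name and was not analysed here. The samples were total RNA of C57BL/6 mouse testis in 4 groups: 4 arrays of 1-week Glis3KO2, 4 of 1-week WT, 3 of 4-week Glis3KO2 and 3 of 4-week WT. Glis3KO2 is the labels' name for a knockout of Glis3, which encodes a Krüppel-like zinc finger transcription factor; the labels give no more of the allele and no treatment. The series description calls the older mice 3 weeks old while each sample's own label says 4 weeks, and the sample labels were followed. The labels do not say whether the samples came from separate animals, so p-values measure only the spread between these samples.

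Undifferentiated spermatogonia are the germ cells of the testis that hold the stem cells and their early progenitors. In the first days after birth, gonocytes move to the basement membrane of the tubule and become these cells, and their descendants then commit to differentiation and meiosis. Self-renewal depends on growth factors from Sertoli cells and on transcription and RNA regulators such as the genes described here. In whole testis, fewer cells of a type and less RNA per cell cannot be told apart.

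Each array held 45018 spots. At 1 week 74.3% to 78.5% of them were well above background on Glis3KO2 arrays, against 82.6% to 86.6% on WT replicates 1 to 3 and 76.7% on WT replicate 4; the part of this in the members' differences was not tested. At 4 weeks the share was 75.9% to 78.6% on Glis3KO2 arrays, against 75.3% to 76.3% on WT arrays. Glis3 averaged -8.04 ± 0.84 in 1-week Glis3KO2 and -4.87 ± 0.18 in 1-week WT (SD, n = 4 each), on the log2 scale relative to the array's 75th percentile that is used throughout. It was not well above background on any Glis3KO2 array and was on 4 of 4 WT arrays at 1 week, at least 4.25-fold lower in Glis3KO2 with an adjusted p of 0.00534 by limma. With normexp background correction, which adds an offset, the difference was -0.46 and not called (adjusted p = 0.206). At 4 weeks it was above background on 0 of 3 Glis3KO2 and 0 of 3 WT arrays, so the labels cannot be checked by it there. Some 1-week arrays stood apart. Glis3KO2 replicate 4, the only array of slide 3, which had a scan day of its own, was the lowest of its group for 9 of 13 member probes. WT replicate 4 correlated over all probes at 0.965 to 0.986 with Glis3KO2 arrays and at 0.975 to 0.982 with the other WT arrays. The mean log2 level of the 9 member genes on it was -1.54. That mean was -1.7 to -1.32 over the 1-week WT arrays and -3.7 to -2.7 over the 1-week Glis3KO2 arrays. Of 5 epididymis markers, Crisp1, a secretory protein of the epididymis, was well above background on 2 of 4 Glis3KO2 and 0 of 4 WT arrays at 1 week. The summed level of the 5 markers was 0.753 and 1.07 on Glis3KO2 replicates 1 and 4 and 0.0823 or less on the other Glis3KO2 arrays, against 0.0559 to 0.106 on WT arrays.

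The probes are 60-base oligonucleotides whose places the array files give on mouse build mm7, in the transcripts of their genes; exon and untranslated parts were not looked up. The Lin28a probe lies at chr4:133382045-133382104 on the minus strand. The Id4 probes lie at chr13:47746630-47746689 (probe 1) and chr13:47746118-47746177 (probe 2) on the plus strand, and those of Foxo1 at chr3:52472787-52472846 (probe 1) and chr3:52475893-52475952 (probe 2), also plus. Utf1 lies at chr7:136358008-136358067 on the plus strand. The sequences below are those of 3 of the 5 probes with the largest falls at 1 week, and of Sall4 probe 1, whose partner probe gave another answer. They are written 5′ to 3′ in lower case with no base marked; Pou5f1 lies at chr17:33612047-33612107 (plus), Neurog3 at chr10:61652560-61652619 (plus), Sox3 at chrX:56286797-56286856 (minus) and Sall4 probe 1 at chr2:168545326-168545385 (minus).
Pou5f1: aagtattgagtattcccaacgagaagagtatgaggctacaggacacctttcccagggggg
Neurog3: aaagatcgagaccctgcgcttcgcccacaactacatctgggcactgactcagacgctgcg
Sox3: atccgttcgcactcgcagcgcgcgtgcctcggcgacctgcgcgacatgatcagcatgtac
Sall4 probe 1: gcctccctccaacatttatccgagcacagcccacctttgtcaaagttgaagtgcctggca

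At 1 week, 8 of 13 member probes were lower in Glis3KO2 than in WT at an adjusted p under 0.05 and 0 were higher, covering 7 of the 9 genes. Over all 33710 probes tested, 9.99% were called, 6.75% lower and 3.24% higher. The 7 genes include any gene with a called probe. With genes tested by their brightest probe, 6 of 9 were lower and 0 higher, where 1397 of 22685 genes were lower. With the mean of a gene's probes it was again 6 of 9, where 1361 of 22606 genes were lower. The groups did not overlap for 9 of 13 member probes, all lower in Glis3KO2; over all probes 13.8% lay apart in that direction and 13.3% in the other. The members' median difference was -0.85 against -0.12 over all probes tested. Lin28a, Sall4 (probe 2), Pou5f1, Neurog3 and Sox3 had the largest differences, 4.62-fold to 12.2-fold. All 13 probes passed the filter on dim signal, which asks for 3 arrays of either group well above background.

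Lin28a encodes an RNA-binding protein that blocks maturation of let-7 microRNAs. Its level was -3.69, -3.01, -3.02 and -5.72 in 1-week Glis3KO2, against 0.14, -0.52, -0.63 and 0.01 in 1-week WT. The groups lay far apart, and Glis3KO2 replicate 4 was the lowest array by a wide margin. Lin28a fell by 3.61 on the log2 scale (SE 0.58, limma adjusted p = 0.0157), or 12.2-fold. With another background correction (normexp) the difference was -2.87. Without Glis3KO2 replicate 4 it was -2.99 (adjusted p = 0.0053), and with slide as a block -2.97 (adjusted p = 0.0135). Without WT replicate 1 it was -3.48 and no longer called (adjusted p = 0.0614). It was -3.11 within slide 1 and -2.76 within slide 2. Its paralog Lin28b differed by -1.12 (SE 0.43, adjusted p = 0.107) and was not called.

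Pou5f1 encodes OCT4, a POU-domain factor of pluripotent and germ cells. Its level was -5.85, -6.01, -5.28 and -7.07 in 1-week Glis3KO2, against -3.16, -3.34, -3.35 and -3.37 in 1-week WT. All WT arrays lay close together and above every Glis3KO2 array, and the lowest Glis3KO2 array was not well above background. The fall was 2.75 on the log2 scale (SE 0.33, limma adjusted p = 0.00564). The size depends on the background correction: with normexp it was -1.23, still called at an adjusted p of 0.00189. Processed copies of Pou5f1 exist in the mouse genome, and whether the probe also binds their transcripts was not tested.

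Neurog3 encodes a basic helix-loop-helix factor of progenitors that are about to differentiate. It measured -4.77, -4.51, -3.99 and -5.16 in 1-week Glis3KO2, against -2.05, -2.77, -2.41 and -2.19 in 1-week WT. The groups did not overlap. The difference was -2.25 (SE 0.27, limma adjusted p = 0.00522), and it was -2.15 within slide 1 and -2.03 within slide 2.

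Sox3 encodes an SRY-related HMG-box factor that is X-linked and needed for the advance of mouse spermatogonia. It measured -6.24, -5.47, -5.58 and -6.57 in 1-week Glis3KO2, against -3.2, -4.09, -3.87 and -3.89 in 1-week WT, again with no overlap. The difference was -2.21 (SE 0.29, limma adjusted p = 0.00788), and with normexp it was -0.92 (adjusted p = 0.0194). With the probes tested cut by mean level into 4 bins of equal size, Pou5f1 and Sox3 were in the dimmest bin, whose median difference was -0.60, while the brightest bin had a median of 0.20. Both members lay well below the median of their bin.

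Sall4 encodes a spalt-like zinc finger factor that acts with PLZF, and its probes disagreed. Probe 2, designed on another transcript record at chr2:168541487-168541546 (minus), measured -2.92, -2.24, -2.30 and -4.10 in 1-week Glis3KO2, against 0.49, 0.27, 0.21 and 0.19 in 1-week WT. Probe 1 measured -1.41, -1.27, -0.28 and -1.43 in 1-week Glis3KO2, against -0.13, -0.57, -0.45 and -1.30 in 1-week WT. The groups were fully separate for probe 2 and overlapped for probe 1, where Glis3KO2 replicate 3 lay among the WT arrays and WT replicate 4 among the Glis3KO2 arrays. Probe 2 fell by 3.18 (SE 0.38, limma adjusted p = 0.00551), and probe 1 differed by -0.48 (SE 0.33, adjusted p = 0.299). Probe 2 holds a short stretch like the telomeric repeat, shown in capitals within bases 17 to 46 of the probe.
Sall4 probe 2, bases 17 to 46: ttgccaggtctTAAACCTAAgagttcttat
Of all probes tested at 1 week, 7.46% match that repeat at least as well. Their median difference was -0.12 and that of the other probes -0.12, values that do not tell about a single probe. Whether the stretch has a part in the fall of probe 2 was not tested. Which Sall4 probe reports the gene was not tested either.

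**Figure D1:**
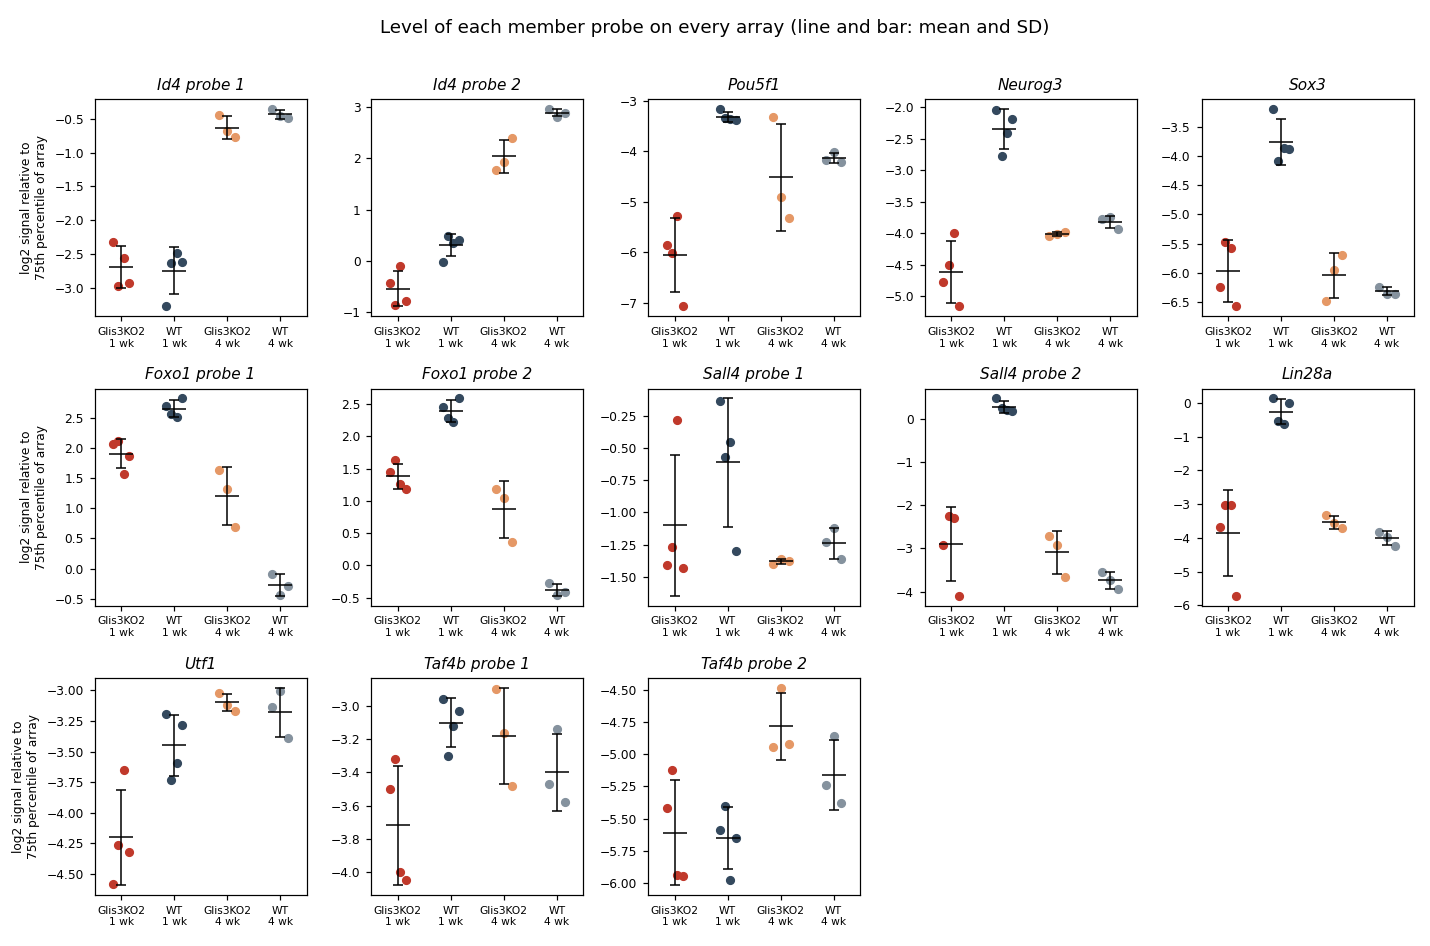
Each panel plots 1 member probe: points are arrays, the line and bar are the mean and SD, the horizontal axis gives the group and the vertical axis the log2 signal relative to the array's 75th percentile (scales differ between panels). At 1 week the Glis3KO2 points lie below all WT points for 9 of 13 probes, and at 4 weeks the Foxo1 points of Glis3KO2 lie above all WT points.

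Foxo1 encodes a forkhead factor needed for stem cell self-renewal that is also used in somatic cells as an effector of insulin signalling. Probe 1 measured 2.06, 2.11, 1.57 and 1.86 in 1-week Glis3KO2, against 2.70, 2.56, 2.51 and 2.82 in 1-week WT. Probe 2 measured 1.45, 1.63, 1.26 and 1.19 in 1-week Glis3KO2, against 2.45, 2.28, 2.23 and 2.59 in 1-week WT. Both probes separated the groups with a smaller gap than the genes above. The differences were -0.75 for probe 1 (SE 0.15, limma adjusted p = 0.0299) and -1.0 for probe 2 (SE 0.14, adjusted p = 0.0106). The call of probe 1 was lost when slide was a block (-0.71, adjusted p = 0.109), under median scaling (-0.49), without Glis3KO2 replicate 1 (-0.80) or 4 (-0.74), and without WT replicate 1 (-0.73), 2 (-0.78) or 3 (-0.80). Probe 2 kept its call under those settings.

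Id4 encodes an inhibitor of basic helix-loop-helix factors that marks the cells richest in stem cell activity in mouse. Its probes also disagreed. Probe 2 measured -0.44, -0.87, -0.11 and -0.79 in 1-week Glis3KO2, against -0.03, 0.48, 0.35 and 0.40 in 1-week WT. Probe 1 measured -2.32, -2.97, -2.56 and -2.93 in 1-week Glis3KO2, against -3.28, -2.63, -2.49 and -2.62 in 1-week WT. Probe 2 separated the groups by a narrow gap, and probe 1 showed no separation. The difference of probe 2 was -0.85 (SE 0.20, limma adjusted p = 0.0402) and that of probe 1 was 0.06 (SE 0.22, adjusted p = 0.85). The call of probe 2 was lost under 14 of 23 alternatives, among them slide as a block (-0.79, adjusted p = 0.139) and leaving out Glis3KO2 replicate 1, 2 or 4 or WT replicate 1, 2 or 3, with differences of -1.0 to -0.75 over all 8 omissions.

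Utf1, a chromatin-bound factor of stem cells, and Taf4b, a gonad-rich subunit of the general factor TFIID with both probes on chromosome 18, did not pass the test at 1 week. Utf1 measured -4.58, -4.26, -3.65 and -4.32 in 1-week Glis3KO2, against -3.19, -3.73, -3.59 and -3.28 in 1-week WT, a difference of -0.76 (SE 0.22, limma adjusted p = 0.0582). Taf4b probe 1 ran between -4.05 and -3.32 in Glis3KO2 and between -3.30 and -2.96 in WT, a difference of -0.62 (SE 0.19, adjusted p = 0.0663). Taf4b probe 2 differed by 0.04 (SE 0.22, adjusted p = 0.891). The Taf4b probe 1 groups were separate by a narrow gap, while Utf1 overlapped through Glis3KO2 replicate 3. Without that array Utf1 differed by -0.94 and was called (adjusted p = 0.0242), 1 of 4 alternatives among 23 that called it, and without Glis3KO2 replicate 2 Taf4b probe 1 differed by -0.75 and was called (adjusted p = 0.0445).

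The count of 8 probes was 6 without the replicate 4 arrays of both genotypes and 5 without WT replicate 1. Without Glis3KO2 replicates 1 and 4, the arrays with the high summed epididymis level, it was 4: Lin28a (-2.76), Sall4 probe 2 (-2.56), Pou5f1 (-2.34) and Neurog3 (-1.89) stayed called, while Sox3 (-1.77, adjusted p = 0.0526), Foxo1 probe 1 (-0.81, adjusted p = 0.143), Foxo1 probe 2 (-0.94, adjusted p = 0.0961) and Id4 probe 2 (-0.79, adjusted p = 0.187) did not, with 272 probes of the array called. The part of epididymis signal in these differences was not tested further. With slide as a block it was 6, the probes lost being Foxo1 probe 1 and Id4 probe 2. Within slide 1, 11 of 13 member probes had a negative difference, and within slide 2 the same held for 12 of 13. On those slides Pou5f1 differed by -2.31 and -2.66, Sox3 by -2.38 and -1.49, Sall4 probe 2 by -2.96 and -2.47, and Foxo1 probe 2 by -0.99 and -0.80. Slide 2 holds a single Glis3KO2 array, which the fit there assumes to vary like the WT arrays. Fitted within a slide, limma called 0 probes of the array after adjustment; at an unadjusted p under 0.05, 7 member probes passed on slide 1 and 6 on slide 2, among 6207 and 1664 over all probes. Scaling to the median instead of the 75th percentile moved the median of all probes by 0.258 at 1 week. It turned the calls of the whole array from 2276 lower and 1091 higher to 1523 lower and 3697 higher, while 6 member probes were lower and 0 higher.

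**Figure D2:**
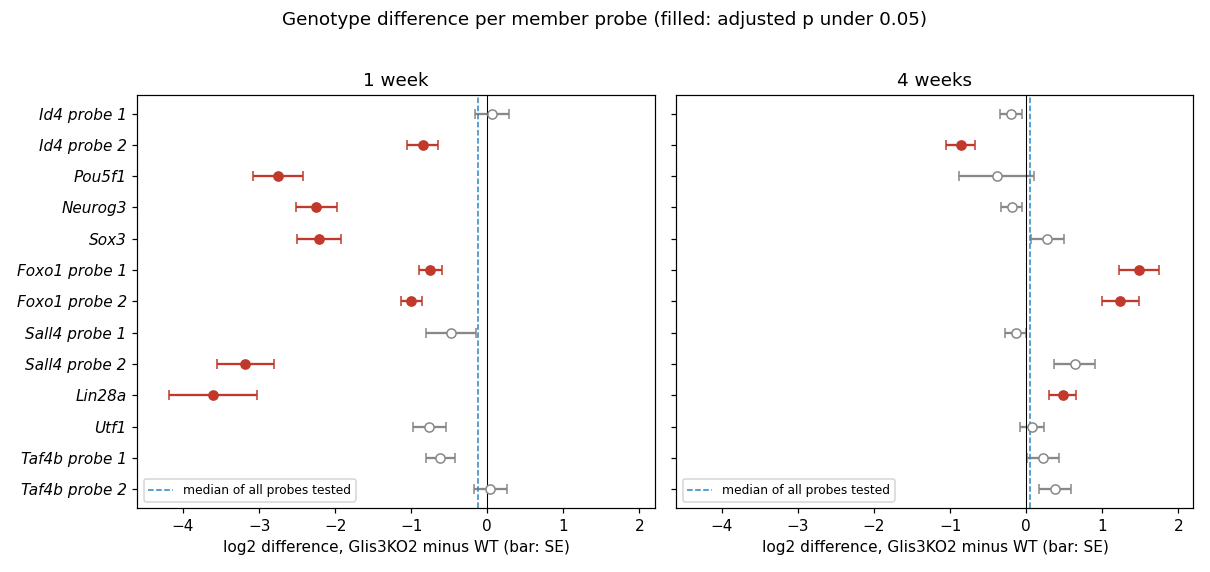
Each row is a member probe and the horizontal axis gives the log2 difference, Glis3KO2 minus WT, with bars for the SE; filled points have an adjusted p under 0.05 and the dashed line is the median of all probes tested. At 1 week 8 of 13 points are filled, all to the left of 0, and at 4 weeks 3 filled points lie to the right and 1 to the left.

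At 4 weeks, 3 of 13 member probes were higher in Glis3KO2 (both Foxo1 probes and Lin28a), 1 was lower (Id4 probe 2) and 9 did not pass the test. Of 31382 probes tested at that age 69.4% were called, 35.6% higher and 33.8% lower. The groups did not overlap for 3 member probes higher in Glis3KO2 and for 2 lower, against 39.1% and 37.9% of all probes. The members' median difference was 0.22, against 0.05 over all probes.

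Foxo1 probe 1 measured 1.63, 1.32 and 0.69 in 4-week Glis3KO2, against -0.09, -0.44 and -0.29 in 4-week WT. Probe 2 measured 1.19, 1.04 and 0.36 in 4-week Glis3KO2, against -0.27, -0.45 and -0.41 in 4-week WT. Each Glis3KO2 array was above every WT array by both probes, with replicate 3 the lowest of the Glis3KO2 arrays. The differences were 1.48 (SE 0.26, limma adjusted p = 0.00229) and 1.24 (SE 0.24, adjusted p = 0.00316), or 2.8-fold and 2.37-fold. Within slide 4 they were 1.66 and 1.46, and between the lone arrays of each genotype on slide 5 they were 1.13 and 0.81. Foxo1 was thus lower in Glis3KO2 at 1 week and higher at 4 weeks.

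Id4 probe 2 measured 1.78, 1.94 and 2.40 in 4-week Glis3KO2, against 2.97, 2.82 and 2.90 in 4-week WT. The groups did not overlap, and the difference was -0.86 (SE 0.19, limma adjusted p = 0.00654), 1.81-fold lower, with -1.07 within slide 4 and -0.42 on slide 5. Id4 probe 1 differed by -0.20 (SE 0.15, adjusted p = 0.281), so the probes disagreed at this age as well. Lin28a measured -3.33, -3.56 and -3.71 in 4-week Glis3KO2, against -3.82, -3.98 and -4.23 in 4-week WT. Its difference of 0.48 (SE 0.18, limma adjusted p = 0.0474) lay at the threshold, and the call was lost under 13 of 19 alternatives, among them slide as a block (adjusted p = 0.0514) and the omission of Glis3KO2 replicate 1 or 2 or of any of the 3 WT arrays (0.36 to 0.57 over all 6 omissions).

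The genes with the largest 1-week falls, apart from Lin28a, were not called at 4 weeks. Neurog3 measured -4.04, -4.01 and -3.98 in 4-week Glis3KO2, against -3.77, -3.75 and -3.93 in 4-week WT, a difference of -0.19 (SE 0.14, limma adjusted p = 0.243). Pou5f1 measured -3.32, -4.90 and -5.32 in 4-week Glis3KO2, against -4.17, -4.01 and -4.20 in 4-week WT, a difference of -0.39 (SE 0.49, adjusted p = 0.504). The Glis3KO2 arrays of Pou5f1 were spread on both sides of the tight WT arrays, and without Glis3KO2 replicate 1 the difference was -0.98 and called (adjusted p = 0.00656). Sox3 was between -6.47 and -5.70 in 4-week Glis3KO2 and between -6.36 and -6.24 in 4-week WT; it differed by 0.28 (SE 0.22, adjusted p = 0.289), and by 0.49 and called without Glis3KO2 replicate 1 (adjusted p = 0.0363). Sall4 probe 2 was between -3.66 and -2.71 in 4-week Glis3KO2 and between -3.94 and -3.54 in 4-week WT. It differed by 0.64 (SE 0.27, adjusted p = 0.0703), and by 0.93 and called without Glis3KO2 replicate 3 (adjusted p = 0.00264). With slide as a block the same difference of 0.64 was called (adjusted p = 0.0481), as was the 0.93 within slide 4 (adjusted p = 0.00963). The remaining probes, Sall4 probe 1, Utf1 and both of Taf4b, differed by -0.14 to 0.38.

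**Figure D3:**
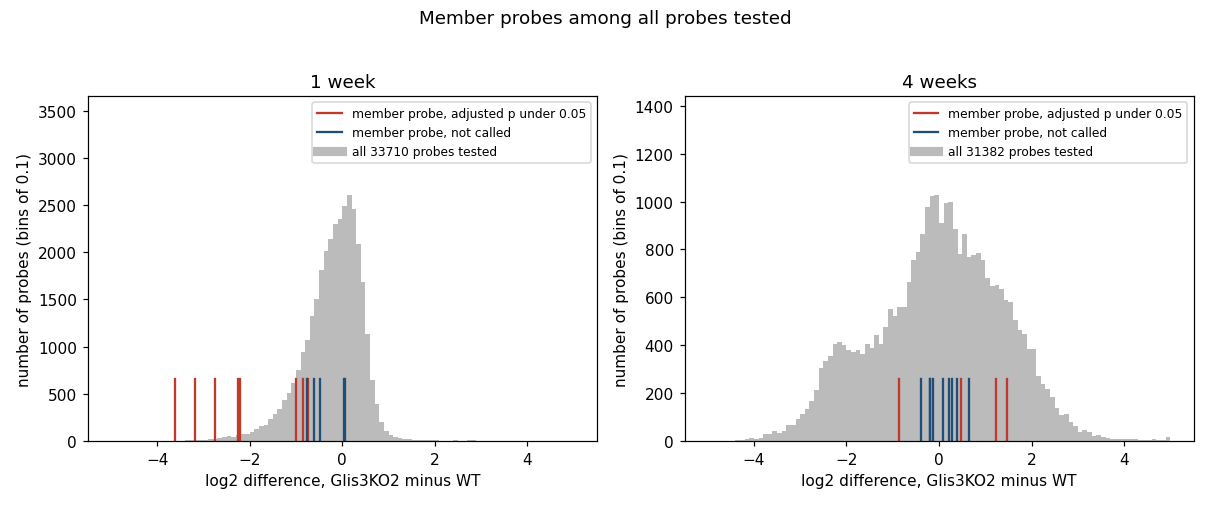
The grey bars count all probes tested in bins of 0.1 of the log2 difference, Glis3KO2 minus WT (values beyond 5 in either direction are in the end bins), and the vertical lines mark the member probes, red where the adjusted p is under 0.05. At 1 week 5 member probes lie in the far lower tail, at -2.21 or below, while at 4 weeks the members lie between -0.86 and 1.48 in a much wider distribution.

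The change of the genotype difference between ages was tested in a fit of all 14 arrays, as the 4-week difference minus the 1-week difference. It was positive and called for 9 of 13 member probes and negative and called for 0, where 51.9% of 35144 probes were called, 31.1% positive and 20.8% negative. Under median scaling the array's split was 7566 positive and 9454 negative, and that of the members 7 positive and 0 negative. The median over members was 2.06, against 0.29 over all probes. Lin28a changed by 4.09 (SE 0.72, limma adjusted p = 0.000626) and Sall4 probe 2 by 3.82 (SE 0.53, adjusted p = 0.000154). Sox3 changed by 2.49, Pou5f1 by 2.36, the Foxo1 probes by 2.25 and 2.23, and Neurog3 by 2.06, with adjusted p-values of 7.31e-05 to 0.0068. Utf1 and Taf4b probe 1 each changed by 0.84 (adjusted p = 0.0304 and 0.0301), calls that were lost under 13 and 12 of 24 alternatives, slide as a block among them (0.82 and 0.71). Id4 was not called by either probe. Age and slide cannot be told apart. Each age's difference was taken among arrays of that age, but slides were not balanced within 1 week. Slide 3 held only Glis3KO2 replicate 4. With slide as a block 7 member probes were called for the change between ages, all positive.

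The levels in WT set the base for these differences. Comparing 4-week WT with 1-week WT, 7 member probes were lower, 3 were higher and 3 were not called, where 81.6% of 35031 probes were called, 51.7% lower and 29.9% higher. The groups did not overlap for 7 member probes lower and 3 higher at 4 weeks, against 51.0% and 30.4% of all probes. The differences of Sall4 probe 2 (-4.03, SE 0.13), Lin28a (-3.76, SE 0.22), Foxo1 (-2.92 and -2.76, SE 0.12 each), Sox3 (-2.55, SE 0.21), Neurog3 (-1.46, SE 0.18) and Pou5f1 (-0.82, SE 0.09) were all negative. Id4 went the other way, by 2.32 (SE 0.19) for probe 1 and 2.60 (SE 0.14) for probe 2, both probes being higher in 4-week WT. Taf4b probe 2 was higher by 0.49 (SE 0.18, limma adjusted p = 0.0357), a call lost under 7 of 14 alternatives, and Utf1, Sall4 probe 1 and Taf4b probe 1 were not called. Without 1-week WT replicate 4 Sall4 probe 1 differed by -0.85 and was called (adjusted p = 0.00139), as was Taf4b probe 1 at -0.43 without 4-week WT replicate 2 (adjusted p = 0.0211). The 1-week Glis3KO2 levels of Lin28a and Sall4 probe 2 were above every 4-week WT array on replicates 1 to 3. On replicate 4, the lone array of slide 3, both were below every 4-week WT array. The 1-week Glis3KO2 levels of Sox3 overlapped those of 4-week WT, and those of Pou5f1 and Neurog3 were below every 4-week WT array.

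Genes of related roles were set beside the members. Of 14 other genes of undifferentiated spermatogonia tested at 1 week, 11 were lower in Glis3KO2 and 0 higher, with a median of -1.81. Of all probes tested at that age 6.75% were lower and 3.24% higher. Those with the smallest p were Tcl1 (-2.60, SE 0.21, limma adjusted p = 0.00283), a coactivator of AKT; Bcl6b (-1.76, SE 0.14), a zinc finger factor downstream of GDNF; Piwil4 (-2.86, SE 0.30), a PIWI protein of the piRNA pathway; and Eomes, a T-box factor. Eomes was not well above background on any 1-week Glis3KO2 array and was at least 3.18-fold lower there than in WT (adjusted p = 0.00371). At 4 weeks 2 of 12 were lower and 6 higher, with a median of 0.55, where 33.8% of all probes were lower and 35.6% higher.

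Of 13 paralogs of the members tested at 1 week, 1 was lower and 0 were higher, where 6.75% of all probes were lower and 3.24% higher. Their median was -0.22, against -0.12 over all probes. The gene called was Foxo3 (-1.04, SE 0.15, limma adjusted p = 0.0116), a forkhead factor like Foxo1. Id2 (0.57, SE 0.15, adjusted p = 0.0501), Zbtb32 (-1.42, SE 0.42, adjusted p = 0.0608) and Sall2 (0.46, SE 0.14, adjusted p = 0.0618) were not called. At 4 weeks 4 of 14 were lower and 4 higher, where 33.8% of all probes were lower and 35.6% higher. Id2 was higher by 1.93 (SE 0.14) and Sall2 by 2.68 (SE 0.27), and Zbtb32 was lower by 1.73 (difference -1.73, SE 0.35). Whether the lists differ from the members was not tested.

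Markers of other cells were read at both ages. Over all probes tested at 1 week 6.75% were called lower and 3.24% higher. At 1 week 3 of 8 pan-germ-cell genes were lower and 0 higher, with a median of -1.54: Tdrd1 (-2.13, SE 0.39, limma adjusted p = 0.0242), a tudor protein of the piRNA pathway, Dnd1 (-1.41, SE 0.31), an RNA-binding protein, and Piwil2 (-1.74, SE 0.41), a PIWI protein. Their summed level, on the linear scale, was 7.04 to 29.4 in 1-week Glis3KO2, against 36.9 to 54.8 in 1-week WT. Of 7 differentiating spermatogonia genes 3 were lower and 0 higher: Dnmt3b (-1.07), a DNA methyltransferase, Kit (-1.15), the stem cell factor receptor, and Lmo1 (-1.76), a LIM-only protein. Ccnd2, a cyclin, was next by p and differed by 0.40 (SE 0.21, adjusted p = 0.199). The summed level of this list was 67.1 to 74.8 in 1-week Glis3KO2, against 63.5 to 83.5 in 1-week WT, which overlap. Such a sum is weighted to bright genes such as Ccnd2. The mean log2 level of the list was 0.76 to 1.83 in 1-week Glis3KO2, against 1.8 to 2.35 in 1-week WT, and the median difference was -0.73. Of 11 Sertoli genes 5 were higher and 0 lower, and their summed level was 369 to 521 in 1-week Glis3KO2, against 266 to 293 in 1-week WT. Leydig genes were higher in 3 of 6, at a summed level of 40.3 to 48.8 in 1-week Glis3KO2, against 27.4 to 32.1 in 1-week WT. Macrophage genes were higher in 2 of 4 (14.7 to 23.3 in 1-week Glis3KO2, against 7.97 to 13.1 in 1-week WT), and 0 of 3 peritubular genes and 0 of 3 epididymis genes tested were called; Crisp1 was not among those tested. Spermatocyte genes were lower in 2 of 6 and spermatid genes in 0 of 4. In none of these lists but the epididymal and the spermatid list was a marker below background on every array of a 1-week group. The part of cell makeup in the members' differences was not tested.

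At 4 weeks all 5 spermatid genes and all 6 spermatocyte genes were lower in Glis3KO2, with medians of -3.15 and -1.36. The summed spermatid level was 55.8 to 154 in 4-week Glis3KO2, against 549 to 817 in 4-week WT, and that of spermatocyte genes 115 to 192 in 4-week Glis3KO2, against 225 to 256 in 4-week WT. Sertoli genes were higher in 10 of 11, with a median of 2.04, and their summed level was 378 to 474 in 4-week Glis3KO2, against 143 to 156 in 4-week WT. Foxo1, the member most raised at 4 weeks, had differences of 1.48 and 1.24. Peritubular genes were higher in 2 of 3 (median 1.23), macrophage genes in 3 of 4 (median 0.88) and differentiating spermatogonia genes in 3 of 7 (median 0.60), with 0 lower in each list. Of 6 Leydig genes 2 were lower, among them Cyp11a1, the first enzyme of steroid synthesis (-3.68, SE 0.18, limma adjusted p = 0.00042), and 1 was higher. Of 4 epididymis genes tested 2 were lower and 0 higher. The summed level of all 5 epididymis markers was 0.167 to 0.228 in 4-week Glis3KO2, against 0.436 to 1.26 in 4-week WT. Crisp1 was well above background on 1 of 3 Glis3KO2 and 3 of 3 WT arrays at this age. The part of epididymis signal in the 4-week and WT age differences was not tested. Of 8 pan-germ-cell genes 6 were lower, 0 higher. Over all probes tested at 4 weeks 35.6% were called higher and 33.8% lower. The counts of differentiating genes higher and of Leydig genes lower lay near those shares. The part of cell makeup in the 4-week values was not tested either.

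**Figure D4:**
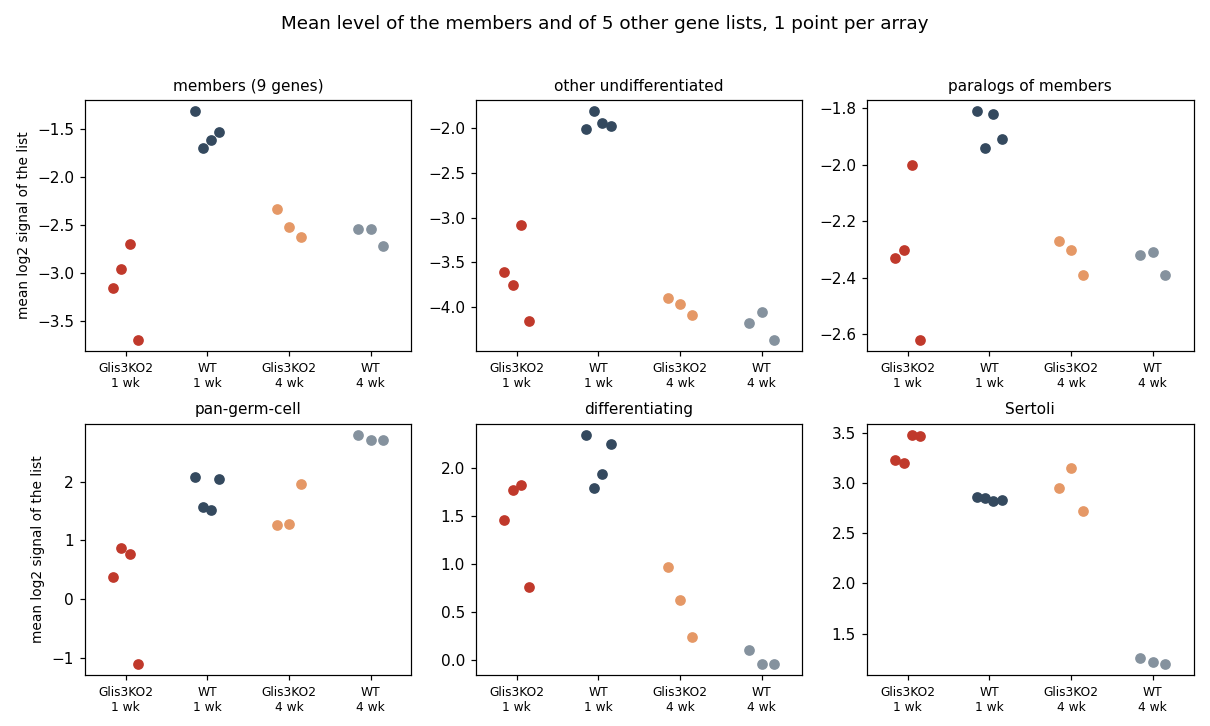
Each panel plots the mean log2 signal of a gene list on every array, 1 point per array, with the group on the horizontal axis (scales differ between panels; genes at background are included). At 1 week the Glis3KO2 points lie below the WT points for the members and for the other undifferentiated, paralog and pan-germ-cell lists, and above them for Sertoli genes.

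The genes whose pattern over the 14 arrays was most like the mean pattern of the 9 member genes, by Pearson's r on log2 values, were Rims1 (0.963), Gcgr (0.960), Foxf1a (0.960), Nr2e1 (0.960), Camkv (0.957) and Kcnj4 (0.956). The arrays form 4 groups, so these values describe group levels and carry no p. All 6 were lower in 1-week Glis3KO2, which follows from choosing them by likeness to the members and is no separate result. Their differences were -4.85 (Nr2e1) to -1.65 (Kcnj4) at 1 week and -0.28 to 0.70 at 4 weeks.

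Promoter windows of 300 bases (250 before and 50 after the start, from RefSeq on GRCm38.p6) matched 6 of the 10 genes: Id4, Pou5f1 (2 windows), Neurog3, Foxo1, Lin28a and Utf1. They are shown for 3 genes that fell together at 1 week, 5′ to 3′ on the gene's strand, with matches to the E-box CANNTG in capitals. The Pou5f1 window is chr17:35505782-35506081 (plus), that of Neurog3 chr10:62132840-62133139 (plus) and that of Lin28a chr4:134018767-134019066 (minus).
Pou5f1: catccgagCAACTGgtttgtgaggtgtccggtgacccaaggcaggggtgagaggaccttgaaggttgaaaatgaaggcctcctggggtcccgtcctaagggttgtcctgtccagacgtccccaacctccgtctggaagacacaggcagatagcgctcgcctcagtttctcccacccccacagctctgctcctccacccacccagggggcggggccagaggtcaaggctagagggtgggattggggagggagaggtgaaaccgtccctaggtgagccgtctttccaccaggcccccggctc
Neurog3: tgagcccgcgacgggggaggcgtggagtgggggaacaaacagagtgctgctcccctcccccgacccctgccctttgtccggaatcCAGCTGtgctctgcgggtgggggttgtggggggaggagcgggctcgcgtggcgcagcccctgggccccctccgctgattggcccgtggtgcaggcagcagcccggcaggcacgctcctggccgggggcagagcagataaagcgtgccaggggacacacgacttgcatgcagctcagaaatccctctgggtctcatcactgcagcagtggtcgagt
Lin28a: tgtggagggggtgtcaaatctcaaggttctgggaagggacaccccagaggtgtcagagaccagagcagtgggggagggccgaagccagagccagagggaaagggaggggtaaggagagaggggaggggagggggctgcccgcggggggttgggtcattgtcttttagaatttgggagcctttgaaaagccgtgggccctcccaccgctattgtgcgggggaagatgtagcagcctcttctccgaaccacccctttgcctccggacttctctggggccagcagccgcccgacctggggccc
Both strands were searched for 5 motifs, and overlaps between different motifs were allowed. The GLIS motif TGGGGGGT was in 0 of the members' windows and in 1.52% of all 32817 windows. The octamer motif ATGCAAAT and the FOXO motif GTAAACA were also in 0 of them, against 1.74% and 3.65% of all windows. The E-box was in the windows of Pou5f1, Neurog3 and Foxo1 and in 72.3% of all windows. The GC box GGGCGG was in those of Id4, Foxo1, Utf1, Lin28a and the first of Pou5f1, against 35.6% of all windows. A match is a string of letters only, and its absence says only that these letters are not in the window.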

How the data were processed

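Testis RNA was labelled with Cy3 and hybridised in 1 colour, per the labels' protocols, and Agilent Feature Extraction 9.5 read the scans, per the submitters' processing notes. The deposited scanner files hold intensity values; per the file headers, the processed signal is background-subtracted and detrended, with no scaling between arrays. The series table held the same intensity for all 45018 spots. Here processed signal was put on the log2 scale, non-uniform spots were left out, spots of a probe were averaged and each array's 75th percentile was subtracted. Probes well above background on 3 or more arrays in either group were tested with limma 3.58.1 (R 4.3.3), adjusted by Benjamini-Hochberg over all probes tested and called under 0.05. Each age was fitted alone; the change between ages used all 14 arrays. Precision is limited by 3 or 4 arrays a group.

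Slides came from the files: slides 1 to 3 held the younger mice and slides 4 and 5 the older ones. Members and lists were chosen with earlier results of these data known. Every member is named; of 4 lists, those of other undifferentiated, paralog, pan-germ-cell and differentiating genes, up to 4 genes with the smallest 1-week p are named; the 6 genes most like the members are given by r. Summed levels use the brightest probe of each gene. Alternatives covered background correction, scaling, filter, probe choice, moderation, slide and replicate blocks, single slides and leaving out each array. The fits were also run on simulated data with independent noise and no slide effects. That cannot show how slides or stray arrays bear on the calls made here.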

Additional observations from a re-analysis of the deposited data

Results flagged for a closer look

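Of 26 groups of 4 arrays examined, 2 had a highest or lowest array far from the rest, where chance gives about 1 in 20. Sall4 probe 1 was -0.28 in 1-week Glis3KO2 replicate 3, with the other Glis3KO2 arrays at -1.43 to -1.27. Pou5f1 was -3.16 in 1-week WT replicate 1, with the other WT arrays at -3.37 to -3.34, a small gap in a tight group.

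The genotype difference changed between ages, 4 weeks minus 1 week and by its own limma test, for 9 member probes. The change was 4.09 for Lin28a, 3.82 for Sall4 probe 2, 2.49 for Sox3, 2.36 for Pou5f1, 2.25 for Foxo1 probe 2, 2.23 for Foxo1 probe 1 and 2.06 for Neurog3. It was 0.84 for Utf1 and 0.84 for Taf4b probe 1. For Foxo1 the 1-week and the 4-week differences were called with opposite signs.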

How the results depend on the processing

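Over 1024 tested alternative values of single member probes, 896 kept direction and side of the threshold, 88 lost the call, 18 gained one and 22 changed sign; 13 values from slide 5 had no test. The 1-week falls of Neurog3, Pou5f1 and Sall4 probe 2 lost their call only within single slides. The 1-week count of 8 member probes was 4 with the replicate block (Lin28a, both Foxo1 probes and Id4 probe 2 were lost), 4 without Glis3KO2 replicates 1 and 4, 0 within slide 1, 0 within slide 2, and 5 to 9 when each array was left out (5 without WT replicate 1). The 4-week count of 4 was 7 within slide 4, and 3 to 5 with an array left out. The WT age count of 10 was 6 with the brightest probe of each of 9 genes, and 9 to 10 with an array left out; the count of 9 for the change between ages ran from 7 to 9. Glis3 at 1 week was -0.46 with normexp, -2.55 within slide 1 and -4.53 within slide 2, none called, and -3.42 to -2.77 with an array left out. The number of all probes called at 1 week, 3367, was 5816 in a fit of all 14 arrays, 5517 with an intensity trend, 5220 with median scaling, 1498 with no filter, 680 with slide as a block, 587 with the replicate block, 272 without Glis3KO2 replicates 1 and 4, 0 within slide 1 or 2, and 395 to 5236 with an array left out. Testing genes in place of probes gave 2294 (brightest) and 1993 (mean) of fewer features at 1 week, 14759 and 14034 against 21769 at 4 weeks, and 12118 and 11463 against 18246 for the change between ages. Quantile normalization gave 1780 lower and 1836 higher at 1 week, against 2276 and 1091.

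Signs turned only where the difference was not called. For the 1-week difference, Id4 probe 1 was -0.34 within slide 2, -0.00665 without Glis3KO2 replicates 1 and 4 and -0.11 to 0.15 with an array left out, and Taf4b probe 2 was -0.12 to 0.16 with an array left out. For the 4-week difference, Neurog3 was 0.0058 with normexp, Pou5f1 was 0.077 within slide 4 and -0.98 to 0.0195 with an array left out, and Taf4b was -0.34 (probe 1) and -0.059 (probe 2) within slide 5. Utf1 at 4 weeks was -0.0037 with median scaling, -0.0090 with quantile normalization, -0.16 within slide 5 and -0.0297 to 0.16 with an array left out. For the change between ages, Id4 probe 2 was 0.21 with quantile normalization and -0.18 to 0.15 with an array left out, and Taf4b probe 2 was -0.0053 with median scaling and -0.26 with quantile normalization. The cause of these changes was not tested. Same-numbered Glis3KO2 and WT arrays did not deviate together (r of -0.17 to 0.14 at 1 week and -0.28 to 0.13 at 4 weeks). With so few arrays these values cannot show whether the numbers pair the samples. With the replicate block 4 member probes were called at 1 week, 4 at 4 weeks and 7 for the change between ages. Slide 5 holds 1 array of each genotype and gives no test. The omission of both replicate 4 arrays, and that of Glis3KO2 replicates 1 and 4, were chosen after seeing the data. Dim probes such as Pou5f1 and Sox3 have the least certain sizes.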
